A study of Dugesia japonica with 12 samples.

Results

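The tubulin genes of the planarian Dugesia japonica and the genes that fold and modify their products were followed in whole worms exposed to the herbicide glyphosate. A gene was taken where either of its database hits (annotation or Swiss-Prot) names a tubulin, where it reached at least 1 TPM (a transcript's level relative to the rest of its library, corrected for transcript length) in at least 3 of 12 libraries, and where the Swiss-Prot hit did not come from a ciliate (Tetrahymena, Paramecium, Euplotes or Stylonychia). Of 30535 genes in the deposited table, 75 matched the name. The ciliate rule dropped 4 of them and the level rule another 9, which left 62 genes. By the names of the hits, 23 are alpha chains, 13 beta chains, 2 gamma chains, 2 components of the gamma-tubulin complex, 8 folding factors, 7 modifying enzymes, 3 polymerization-promoting proteins and 3 tau-tubulin kinases. The remaining gene, DN38983_c0_g5, has an annotation hit to a tubulin polyglutamylase but a Swiss-Prot hit to a proteasome subunit, and was counted apart.

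Control worms without glyphosate, and worms sampled on day 1, 3 and 5 of exposure to glyphosate at 64 mg per L, gave 3 libraries each, 12 in all. All worms belong to the clonal, asexually reproducing strain Dj-NH, collected from a stream and kept in the laboratory. When the control worms were sampled is not stated, so exposure and days spent in the experiment cannot be told apart. No label ties the libraries to separate cultures, and p-values therefore cover the spread between these libraries, part of which may be technical.

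Microtubules are hollow polymers of alpha- and beta-tubulin pairs. They form the mitotic spindle, the tracks of axonal transport and the core of cilia, and planarians glide on a ciliated underside. Gamma-tubulin and its complex nucleate new microtubules. Tubulin-specific chaperones A to E assemble the alpha-beta pair, while tyrosine ligase-like enzymes and an acetyltransferase add marks to tubulin that tune how motors and severing enzymes use the polymer.

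The levels covered a wide range. Means over the 12 libraries ran from 0.7225 to 1314 TPM with a median of 5.21 TPM, and 11 genes reached 100 TPM while 30 stayed under 5 TPM. The most abundant pair, the alpha chain DN34008_c1_g1 (best hit to a sea urchin neural alpha-tubulin) and the beta chain DN38829_c3_g3 (best hit in the flatworm Opisthorchis viverrini), held 42.3% of the summed TPM of the 62 genes, and the top 4 held 63.4%. Among the alpha chains 4 reached 100 TPM, and among the beta chains 5 did. The other 2 at that level are the tau-tubulin kinase DN32371_c2_g1 and the polymerization-promoting protein DN35524_c6_g1. Every gamma chain, gamma-tubulin complex component and modifying enzyme had a mean under 15 TPM in each of the 4 groups.

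**Figure D1:**
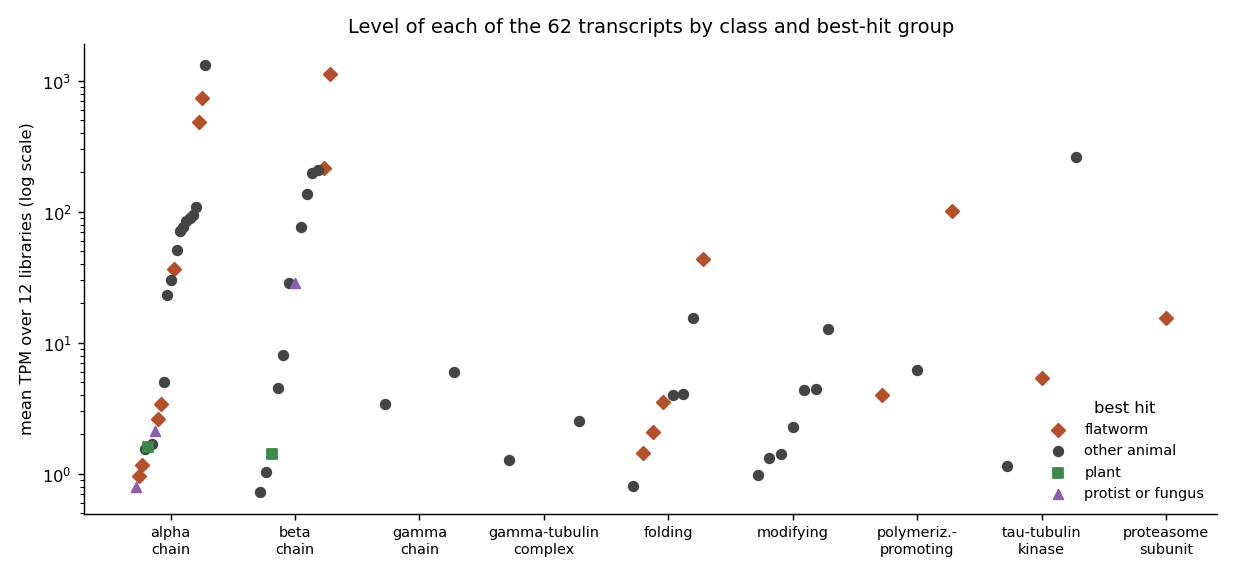
Mean TPM over the 12 libraries (log scale) of each of the 62 genes, by class from left to right. The marker shows the group of the hit, by a flatworm annotation hit where there is one and mostly by the Swiss-Prot hit otherwise. Alpha and beta chains span about 3 orders of magnitude, from below 1 TPM to 1314 TPM, and the gamma chains and modifying enzymes lie far below the abundant chains.

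The genes are contigs of a transcript assembly, and many are pieces: lengths run from 203 to 3741 bases with a median of 831 among the 62. They fall into 48 assembly clusters (identifiers alike up to the last part), and 24 of them share 1 of 10 clusters with another of the 62. Reads of near-identical chains can be divided among such contigs, so the level of a single chain is uncertain in a way that the replicate spread does not show.

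Most of these genes passed the test at no day, and every gene that passed was lower in exposed worms. At day 1, 2 of the 62 genes were lower and 0 higher (limma on log2(TPM + 1), Benjamini-Hochberg over 27329 genes, adjusted p under 0.05), while 0.132% of all genes tested were called, 0.0476% lower and 0.0842% higher. At day 3, 4 were lower and 0 higher, while 1.62% of all genes were called, 1.19% lower and 0.428% higher. At day 5, 5 were lower and 0 higher, while 2.91% of all genes were called, 2.23% lower and 0.681% higher. Over the 3 days 6 genes passed at least once, 4 of them alpha chains, 1 a beta chain and 1 a folding factor, and 56 passed at no day. The 3 comparisons share the control libraries, so their counts are not independent.

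The median log2 fold change over the 62 genes was -0.23 at day 1, -0.14 at day 3 and -0.20 at day 5, beside -0.08, -0.06 and -0.09 over all genes tested. By class, the median of the 23 alpha chains was -0.40, -0.48 and -0.46 on the same 3 days. That of the 13 beta chains was -0.26, 0.04 and -0.15. The 8 folding factors had medians of -0.16, -0.10 and -0.12, and the 7 modifying enzymes -0.19, -0.04 and -0.03. Libraries of the exposed and control groups did not overlap, with the exposed ones lower, for 7, 9 and 17 of the 62 genes at days 1, 3 and 5, beside 7.71%, 10.5% and 15.6% of all genes. At day 5 the 17 make up 6 alpha chains, 4 beta chains, 3 folding factors, 1 gamma chain, 2 polymerization-promoting proteins and 1 tau-tubulin kinase. The opposite pattern, all 3 day 5 libraries above all 3 control libraries, was met by 1 gene, DN36514_c3_g1, and by 7.7% of all genes tested. At days 1 and 3 it was met by 0 of the 62 genes and by 5.65% and 5.66% of all genes. DN36514_c3_g1, whose Swiss-Prot hit is a relative of chaperone E, averaged 4.96 ± 0.41 TPM at day 5 and 3.34 ± 1.0 TPM in control worms (SD, n = 3 each), a log2 fold change of 0.48 (adjusted p = 0.37).

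**Figure D2:**
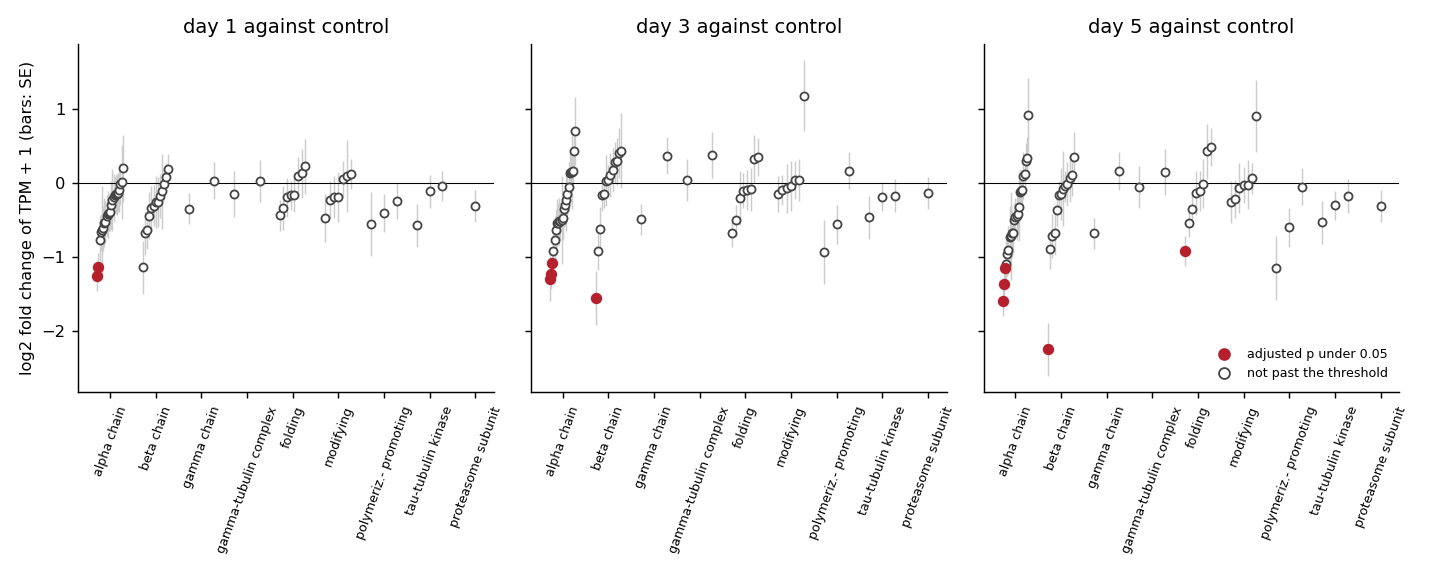
Log2 fold change of TPM + 1 for each of the 62 genes by class, with standard errors as grey bars, for days 1, 3 and 5 against control. Filled red points passed an adjusted p of 0.05: 2 genes at day 1, 4 at day 3 and 5 at day 5, all below 0.

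Alpha chains are the partner of the pair that keeps its bound nucleotide, and 4 of the 23 passed at some day. DN33524_c1_g5, whose best hit is an acorn worm alpha-1A-like chain, had 55.0, 36.2 and 40.8 TPM in the control libraries. It had 17.8, 19.1 and 15.8 TPM at day 1, then 16.0, 20.7 and 17.2 TPM at day 3 and 13.6, 15.1 and 12.3 TPM at day 5. All 9 exposed libraries lay below all 3 control libraries. The log2 fold change was -1.26 ± 0.20 (SE) at day 1, -1.23 ± 0.20 at day 3 and -1.60 ± 0.20 at day 5, with adjusted p = 0.017, 0.0045 and 0.00033.

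DN35753_c5_g2, with a best hit to a bird alpha-8 chain, had 54.1, 59.2 and 44.9 TPM in control worms. It had 22.98, 24.7 and 22.4 TPM at day 1, 21.4, 29.8 and 22.3 TPM at day 3 and 18.4, 21.7 and 19.4 TPM at day 5. Again no exposed library reached the lowest control library. Its log2 fold change was -1.13, -1.08 and -1.36 (SE 0.19 each), with adjusted p = 0.026, 0.0076 and 0.00082. These 2 alpha chains were the only genes of the 62 called at all 3 days. Their calls at days 3 and 5 held in each fit that left out 1 library.

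Their calls at day 1 did not. For DN33524_c1_g5 the adjusted p at day 1 was 0.12 when control replicate 1 was left out, 0.063 when control replicate 3 was, and 0.11, 0.057 and 0.091 when day 1 replicate 1, 2 or 3 was, in a range of 0.0060 to 0.12 over 22 alternatives. For DN35753_c5_g2 it was 0.13 when control replicate 1 was left out, 0.054 when control replicate 2 was, 0.16, 0.084 and 0.096 when day 1 replicate 1, 2 or 3 was, and 0.052 when day 5 replicate 3 was, in a range of 0.0046 to 0.16. The log2 fold change at day 1 ran from -1.39 to -1.09 for DN33524_c1_g5 and from -1.24 to -1.01 for DN35753_c5_g2 over these alternatives.

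**Figure D3:**
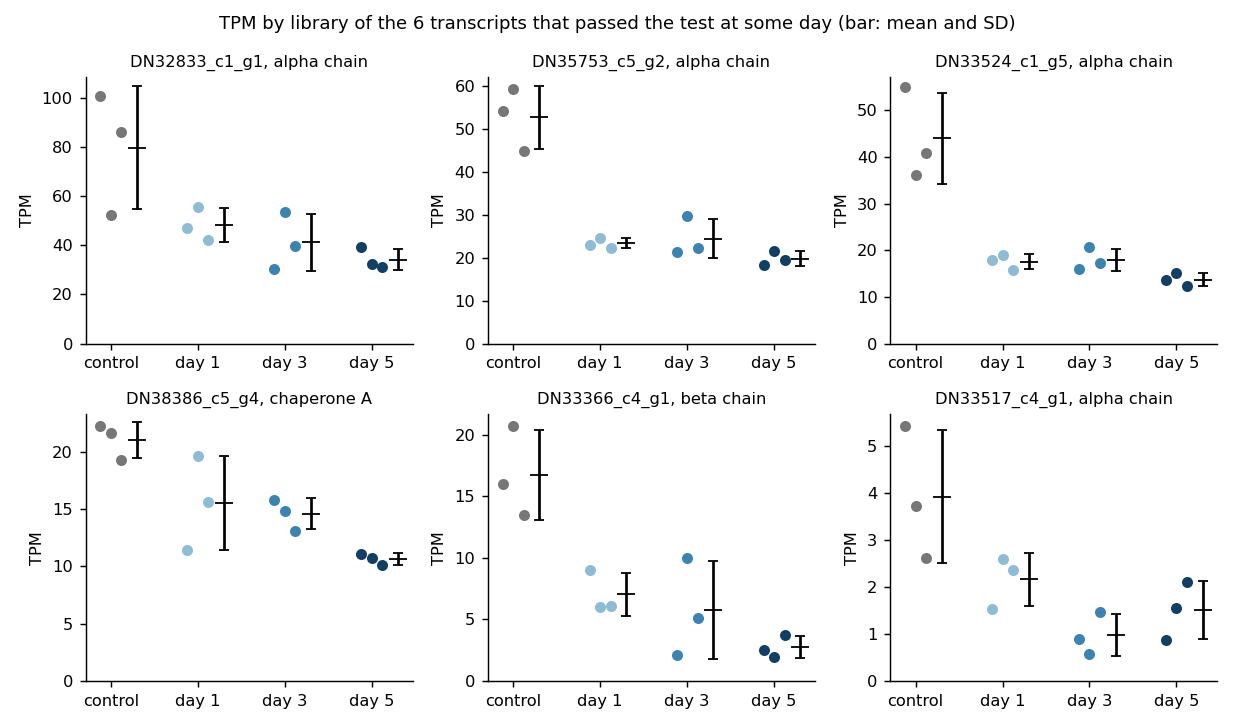
TPM in each library of the 6 genes that passed the test at some day, ordered by mean level, with the group mean and SD as a bar beside the 3 points. The day 5 points lie below all 3 control points in every panel, and the alpha chains DN35753_c5_g2 and DN33524_c1_g5 are lower from day 1 on.

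Both chains also made up a smaller share of their own assembly clusters in exposed worms, a comparison made after the values were seen. The shares use the same TPM values that gave the calls, so they are no separate support for them. Cluster DN35753_c5 holds 2 contigs, both alpha chains. DN35753_c5_g2 made up 29.8% to 39.3% of its TPM in control libraries, 19.3% to 23.3% at day 1, 11.3% to 18.4% at day 3 and 10.9% to 20.1% at day 5. The other contig, DN35753_c5_g3, averaged 109 ± 38 TPM at day 5 and 99.7 ± 25 TPM in control worms, and its groups overlapped. In cluster DN33524_c1, of 5 contigs, DN33524_c1_g5 made up 3.23% to 4.39% of the TPM in control libraries , 2.26% to 2.48% at day 1, 2.18% to 3.06% at day 3 and 1.73% to 2.30% at day 5. With TPM summed over each cluster before the fit, neither cluster was called at any day. The sum of DN33524_c1 had log2 fold changes of -0.57, -0.66 and -0.74 at days 1, 3 and 5. That of DN35753_c5 had -0.46, 0.06 and -0.27. Each called chain is the smaller part of its cluster, so the sums mostly follow the other contigs and do not test its own fall.

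**Figure D4:**
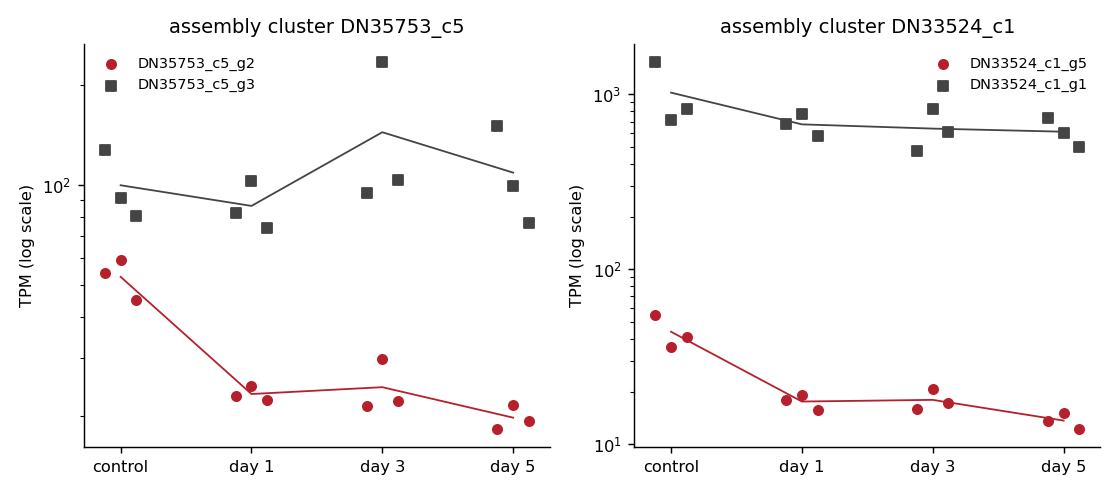
TPM (log scale) in each library of a called alpha chain (red circles) and of the more abundant alpha chain of the same assembly cluster (grey squares), with lines through the group means. In cluster DN35753_c5 the called chain is lower on every exposure day while the other chain averages 109 TPM at day 5 and 99.7 TPM in control worms.

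Another alpha chain, DN32833_c1_g1 (best hit in the limpet Lottia gigantea), passed at day 5. It had 39.2, 32.3 and 31.0 TPM at day 5, against 101, 52.2 and 86.2 TPM in control worms. The groups did not overlap, and the control libraries were widely spread. The log2 fold change was -1.15 ± 0.25 (SE, adjusted p = 0.022). The adjusted p was 0.11 when control replicate 1 was left out, 0.074 when control replicate 3 was, and 0.053, 0.078 and 0.089 when day 5 replicate 1, 2 or 3 was, in a range of 0.0058 to 0.11 over 22 alternatives. At days 1 and 3 it averaged 48.3 ± 6.9 and 41.2 ± 12 TPM and did not pass. DN32833_c1_g1 made up 89.2% to 95.7% of its cluster's TPM at day 5 and 92.7% to 100% in control libraries. These ranges overlapped.

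The least abundant called alpha chain is DN33517_c4_g1, a contig of 203 bases whose Swiss-Prot hit comes from the amoeba Dictyostelium and whose annotation hit comes from a sea anemone. It had 0.89, 0.58 and 1.47 TPM at day 3, against 5.42, 3.72 and 2.61 TPM in control worms. The day 3 call (log2 fold change -1.30 ± 0.30, adjusted p = 0.044) held in 4 of 21 alternatives, whose adjusted p ran from 0.044 to 0.25. It ended without each of 11 libraries, all but day 5 replicate 1. Leaving out control replicate 1, 2 or 3 gave an adjusted p of 0.17, 0.10 and 0.054, day 1 replicate 1, 2 or 3 gave 0.055, 0.052 and 0.064, and day 3 replicate 1, 2 or 3 gave 0.099, 0.097 and 0.058. Leaving out day 5 replicate 2 or 3 gave 0.066 and 0.053.

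The abundant alpha chains did not pass at any day. DN34008_c1_g1 had 1132, 1138 and 1054 TPM at day 5, against 2054, 1475 and 1075 TPM in control worms, and the groups overlapped (log2 fold change -0.42 ± 0.28, adjusted p = 0.50). DN33524_c1_g1, whose best hit is an alpha chain of Dugesia japonica itself, had 735, 603 and 499 TPM at day 5, against 1527, 716 and 829 TPM in control worms (log2 fold change -0.68 ± 0.28, adjusted p = 0.23). In both, control replicate 1 was the highest control library. Of the alpha chains with a mean of at least 5 TPM, DN35753_c3_g2 had the highest fold change at day 5, with 129, 107 and 85.4 TPM against 87.7, 78.5 and 91.6 TPM in control worms (log2 fold change 0.30 ± 0.24, adjusted p = 0.60), and its groups overlapped.

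Beta chains, the partner that hydrolyses its nucleotide as the polymer grows, had a single called gene, DN33366_c4_g1. Both of its hits are beta chains of the nematode Caenorhabditis elegans, tbb-2 in Swiss-Prot. It had 16.0, 20.7 and 13.5 TPM in control libraries, 9.06, 6.03 and 6.06 TPM at day 1, 2.12, 10.01 and 5.09 TPM at day 3 and 2.55, 1.94 and 3.73 TPM at day 5. Every exposed library was below every control library. The day 5 fold change, -2.25 ± 0.36 on the log2 scale (adjusted p = 0.0030), was the largest of the 62 genes and held in all 22 alternatives. The day 1 value, -1.14, did not pass (adjusted p = 0.34).

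Its day 3 value, -1.56 ± 0.36, passed with an adjusted p = 0.040 and held in 8 of 22 alternatives, with a range of 0.0082 to 0.12. Leaving out control replicate 1, 2 or 3 gave an adjusted p of 0.12, 0.12 and 0.071, and day 1 replicate 2 or 3 gave 0.051 and 0.056. Leaving out day 3 replicate 1 or 3 gave 0.12 and 0.099, and day 5 replicate 1 or 2 gave 0.055 and 0.051. The cluster of this chain holds 1 other contig, which has no tubulin name. The chain made up 33.5% to 50.4% of the cluster's TPM at day 5, against 71.4% to 86.9% in control libraries. Summed over the cluster, the day 5 fall remained past the threshold (adjusted p = 0.022), as it did for the cluster of DN32833_c1_g1 (adjusted p = 0.032).

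The other 12 beta chains passed at no day. The most abundant, DN38829_c3_g3, had 1359, 1138 and 815 TPM at day 5, against 1534, 1001 and 835 TPM in control worms, a log2 fold change of -0.01 ± 0.30 whose sign turned with the scaling. At day 3 its replicate 2 alone stood at 1915 TPM, against 898 and 1075 TPM in replicates 1 and 3. DN38829_c3_g2, from the same cluster, had 212, 175 and 143 TPM at day 5, against 455, 192 and 272 TPM in control worms (log2 fold change -0.72 ± 0.30, adjusted p = 0.24). DN34708_c0_g1 averaged 205 ± 39 TPM at day 5 and 195 ± 64 TPM in control worms (SD, n = 3 each), and had the highest day 5 fold change of the beta chains that average at least 5 TPM (0.10 ± 0.28 on the log2 scale, adjusted p = 0.91).

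Summed over all 23 alpha chains, the control libraries held 5485, 3474 and 3043 TPM. The day 1 libraries held 3323, 3380 and 2624 TPM, those of day 3 2243, 4251 and 2699 TPM and those of day 5 3038, 2751 and 2386 TPM. Days 1 and 3 overlapped the controls. The highest day 5 library lay just below the lowest control library, closer to it than the control libraries lay to each other. The 13 beta chains summed to 2178 ± 608 TPM in control worms, 1811 ± 302 TPM at day 1, 2206 ± 771 TPM at day 3 and 1922 ± 361 TPM at day 5 (SD, n = 3 each), and all 4 groups overlapped. In both sums replicate 2 was the highest library of day 3 and replicate 1 the highest control.

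Both sums leave out the tubulins with ciliate hits, which are described below. The ratio of the alpha sum to the beta sum within a library spread less between replicates than either sum. It was 1.91, 1.83 and 1.73 in control libraries, 1.93, 1.57 and 1.68 at day 1, 1.36, 1.38 and 1.43 at day 3 and 1.35, 1.39 and 1.55 at day 5. Day 1 overlapped the controls, while every day 3 and day 5 library was below every control library and below every day 1 library. The means were 1.39 ± 0.039 at day 3 and 1.43 ± 0.11 at day 5, against 1.82 ± 0.087 in control worms (SD, n = 3 each). The ratio is a description with no test, and it rests mainly on a few abundant chains: the top 2 alpha chains hold 63.6% of the alpha TPM and the top 2 beta chains 65.9% of the beta TPM.

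**Figure D5:**
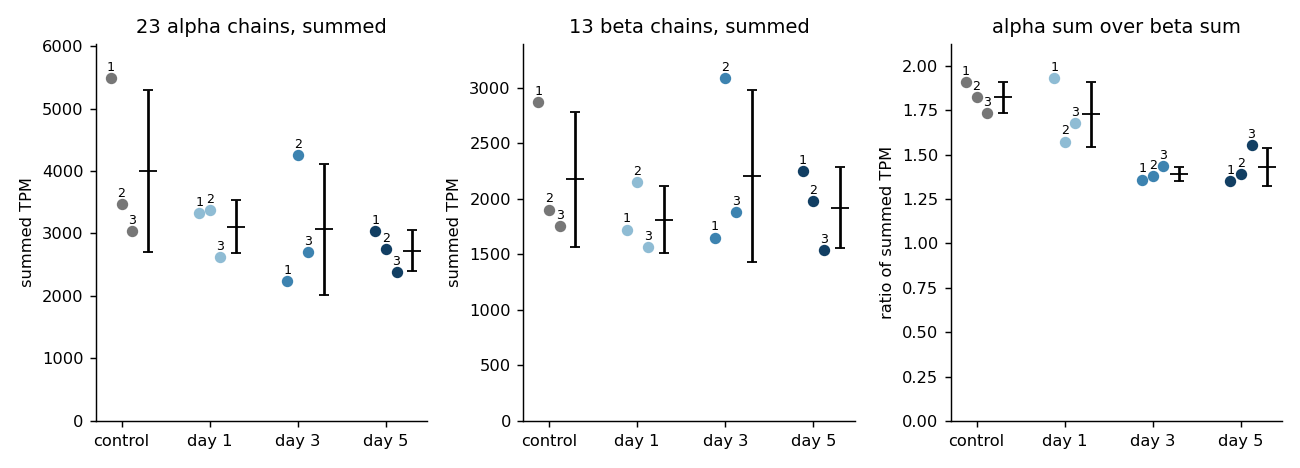
Summed TPM of the 23 alpha chains and of the 13 beta chains, and the ratio of the 2 sums, in each library (replicate number above the point), with group mean and SD as a bar. Control replicate 1 and day 3 replicate 2 stand high in both sums, while the ratio lies between 1.35 and 1.55 at days 3 and 5 and between 1.73 and 1.91 in control libraries.

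Gamma-tubulin, which seeds microtubules at the centrosome and other nucleation sites, is represented by a pair of contigs of cluster DN34571_c2, both with an oyster gamma-1 chain as best hit. DN34571_c2_g8 had 4.42, 4.25 and 5.07 TPM at day 5, against 9.78, 7.25 and 7.05 TPM in control worms. Its exposed libraries lay below all control libraries on each of the 3 days, and it did not pass at any of them (day 5 log2 fold change -0.68 ± 0.21, adjusted p = 0.10). DN34571_c2_g5 had 3.89, 3.53 and 2.90 TPM at day 5, against 3.54, 2.37 and 3.04 TPM in control worms, and overlapped (0.16 ± 0.26, adjusted p = 0.82). The gamma-tubulin complex component 2, DN30328_c0_g2, averaged 2.37 ± 0.68 TPM at day 5 and 2.57 ± 1.2 TPM in control worms (log2 fold change -0.05, adjusted p = 0.96), with a sign that turned with the scaling. Component 4, DN31675_c0_g1, averaged 1.33 ± 0.47 and 1.12 ± 0.56 TPM in the same 2 groups (log2 fold change 0.15, adjusted p = 0.88).

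Of the 8 folding factors, 1 passed. DN38386_c5_g4, whose Swiss-Prot hit is chaperone A, the factor that holds beta-tubulin before it is paired, had 11.1, 10.7 and 10.1 TPM at day 5, against 22.3, 21.6 and 19.2 TPM in control worms. The groups were far apart and each was tight. The log2 fold change was -0.92 ± 0.21 (adjusted p = 0.024). The day 3 libraries (15.8, 14.9 and 13.1 TPM) were also below the controls without passing (adjusted p = 0.27), and those of day 1 (11.4, 19.6 and 15.6 TPM) overlapped them.

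The day 5 adjusted p of DN38386_c5_g4 was 0.098 and 0.066 when control replicate 1 or 2 was left out, and 0.080, 0.079 and 0.099 when day 5 replicate 1, 2 or 3 was, in a range of 0.011 to 0.099 over 22 alternatives. Its cluster holds 7 contigs, and the other 6 have no tubulin name. Its share of the cluster's TPM was 8.51% to 10.8% at day 5, against 13.1% to 17.2% in control libraries. A second chaperone A contig, DN5683_c0_g1, averaged 1.27 TPM at day 5 and 0.667 TPM in control worms and was the gene nearest the level rule, with a third-highest library of 1.01 TPM. The nearest gene outside the rule, DN906_c0_g1, had a third-highest library of 0.84 TPM.

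Chaperone B, DN32133_c0_g1, which binds alpha-tubulin, was the most abundant folding factor. It had 34.9, 37.2 and 28.8 TPM at day 3, against 49.6, 66.0 and 48.2 TPM in control worms. The groups did not overlap at day 3 or at day 5, and neither day passed (log2 fold change -0.68 ± 0.19, adjusted p = 0.098 at day 3, and -0.54 ± 0.19, adjusted p = 0.16 at day 5). Summed over the 8 folding factors the levels were 60.1, 71.6 and 60.7 TPM at day 5, against 89.1, 102 and 83.9 TPM in control worms, without overlap. Chaperones A and B make up most of that sum.

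None of the 7 modifying enzymes passed at any day, and none differed without overlap at day 3 or day 5. The alpha-tubulin acetyltransferase DN33756_c1_g1, which marks the luminal side of stable microtubules, had 11.7, 12.6 and 14.9 TPM at day 5, against 14.0, 12.5 and 10.8 TPM in control worms (log2 fold change 0.06 ± 0.21, adjusted p = 0.93). The polyglutamylase TTLL1 contig DN25712_c0_g1 averaged 3.88 ± 1.2 and 4.91 ± 1.9 TPM in the same groups (-0.26 ± 0.28, adjusted p = 0.73). The other modifying enzymes, with hits to TTLL5, TTLL11, TTLL12 and a polyglutamylase complex subunit, lay below 5 TPM on average. The TTLL11 contig DN39518_c5_g4 had the largest positive fold change of the 62 genes at day 3 (1.18 on the log2 scale, adjusted p = 0.26), where replicate 2 held 5.26 TPM and the other 2 libraries 0.52 and 0.96 TPM.

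The remaining classes had no called gene. Among the polymerization-promoting proteins, DN35524_c6_g1 has hits to family member 2. It had 91.7, 85.3 and 79.05 TPM at day 5, against 163, 122 and 109 TPM in control worms. The groups did not overlap (log2 fold change -0.60 ± 0.26, adjusted p = 0.27). DN12157_c0_g1 of the same family had 2.69, 3.49 and 4.75 TPM at day 5, against 12.2, 9.16 and 6.90 TPM in control worms, again without overlap (-1.16 ± 0.43, adjusted p = 0.18). The abundant tau-tubulin kinase DN32371_c2_g1, from a family known to phosphorylate tau and tubulin in mammals, averaged 230 ± 24 TPM at day 5 and 286 ± 54 TPM in control worms (-0.30 ± 0.20, adjusted p = 0.495). A second kinase, DN37902_c1_g2, averaged 5.10 ± 0.125 and 5.92 ± 1.1 TPM in these groups (-0.17, adjusted p = 0.78). The contig with the proteasome subunit hit, DN38983_c0_g5, averaged 14.2 ± 2.3 and 17.8 ± 2.5 TPM (-0.31, adjusted p = 0.53).

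Between exposure times no gene of the 62 passed. Day 3 against day 1 gave 0 calls with limma (0.179% of all genes tested were called). There 6 of the 62 were at an unadjusted p under 0.05, beside 2366 of all 27329 genes tested. Day 5 against day 3 gave 0 calls (0.0% of all genes called), with 2 of the 62 at that p, beside 842 of all genes. Day 5 against day 1, added after the data were seen, also gave 0 calls (0.49% of all genes called). At that p were 3 of the 62, beside 2793 of all genes. An F test over the 4 groups called 3 of the 62, the alpha chains DN33524_c1_g5 (adjusted p = 0.0013) and DN35753_c5_g2 (0.0029) and the beta chain DN33366_c4_g1 (0.015), beside 1.84% of all genes.

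Hits came from several groups of organisms. Each gene was placed by a flatworm annotation hit where it has one, and otherwise by its Swiss-Prot hit or, lacking that, its annotation hit. On that basis 17 of the 62 genes have a flatworm hit, 40 a hit in another animal, 2 a plant hit and 3 a hit in a protist or fungus. The annotation hits of all genes in the last 2 groups come from animals. DN36538_c3_g1 and DN32833_c1_g4, both counted with the flatworms, have Swiss-Prot hits in the alga Guillardia theta and the fungus Emericella nidulans. The flatworm-hit genes include some of the most abundant chains. Of these 17, 0 were called at any day with limma, beside 0.132%, 1.62% and 2.91% of all genes at days 1, 3 and 5. On the same days 1, 3 and 6 of them were at an unadjusted p under 0.05, beside 2414, 3962 and 4501 of all 27329 genes. With so few genes, 0 calls does not set this group apart from all genes. Of the 6 called genes, 5 have hits in other animals and 1 the Dictyostelium hit. Whether called genes differ from others in the source of their hit was not tested.

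The 4 tubulins with ciliate hits, which the rule leaves out, include 2 that fell. The beta chain DN34708_c0_g5 had 2.42, 1.22 and 2.33 TPM at day 5, against 19.9, 15.0 and 14.0 TPM in control worms (log2 fold change -2.54, adjusted p = 0.00028). The alpha chain DN33524_c1_g3, a contig of the same cluster as the called DN33524_c1_g5, had 10.8, 7.34 and 10.4 TPM at day 5, against 61.7, 28.3 and 39.5 TPM (-2.02, adjusted p = 0.0058). The other 2, DN33524_c1_g12 and DN34708_c0_g6, did not pass at any day. The beta chain DN34708_c0_g6 averaged 225 TPM over the 12 libraries. Its annotation hit comes from the annelid Capitella, and it shares a cluster with 3 of the 13 beta chains counted above. The alpha and beta sums and their ratio leave out all 4.

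Ciliate-hit genes were also counted as a list. Of 72 genes 68 were tested, and 0, 16 and 30 were lower and 1, 2 and 3 higher at days 1, 3 and 5. Over all genes tested 0.0476%, 1.19% and 2.23% were lower and 0.0842%, 0.428% and 0.681% higher on these days. Their summed TPM ran from 596 to 775 in control libraries, 414 to 650 at day 1, 193 to 610 at day 3 and 265 to 299 at day 5. Of these genes 1 was at 0 in all day 5 libraries and 1 in all control libraries. Plant or algal names matched 7 genes, of which 4 were tested and 0 called by limma, with 0, 1 and 0 at an unadjusted p under 0.05, and their summed TPM was 2.87 to 8.69 at day 5 and 0.81 to 6.03 in control libraries. The part that RNA of other organisms plays in the falls of the 62 genes was not tested.

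Markers of ciliated cells, neurons and stem cells were set beside the tubulins. Over all genes tested 0.0476%, 1.19% and 2.23% were lower and 0.0842%, 0.428% and 0.681% higher at days 1, 3 and 5. At an unadjusted p under 0.05 limma gave 2414, 3962 and 4501 of all 27329 genes. Of 104 genes named for ciliary structures 92 were tested, and 0, 0 and 1 were lower at days 1, 3 and 5 with 0 higher. On these days 3, 12 and 19 of the 92 were at that p. Their summed TPM was 527 to 639 at day 5, against 688 to 1011 in control libraries. Of 34 neuronal genes 0 were called by limma at any day (1, 3 and 1 at an unadjusted p under 0.05), with sums of 421 to 466 TPM at day 5 and 372 to 454 TPM in control libraries. Of 39 stem cell genes 35 were tested, and 0, 8 and 8 were lower with 0 higher. At day 3 and at day 5, 2 of the lower ones have ciliate hits. At an unadjusted p under 0.05 limma gave 10, 12 and 18 of the 35 stem cell genes. Their sum was 694 to 718 TPM at day 5, against 996 to 1367 TPM in control libraries. In whole-worm RNA, fewer cells of a type and less RNA per cell cannot be told apart, and the part of cell composition in the tubulin values was not tested.

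Other genes of the microtubule system were counted as lists. Over all genes tested, 0.132%, 1.62% and 2.91% were called at days 1, 3 and 5. In lists this small, 0 calls does not set a list apart from all genes. The chaperonin TCP-1, which folds tubulin before the specific chaperones act, had 14 genes with 12 tested and 0 called, and its median log2 fold change at day 5 was -0.23. Prefoldin, which hands nascent tubulin to that chaperonin, had 7 genes with 6 tested and 0 called (median -0.26). None was called among the tested kinesins (25 of 29), cytoplasmic dynein and dynactin genes (19 of 21), axonemal dyneins (37 of 47), microtubule-associated proteins (8 of 10), the severing enzymes katanin and spastin (6 of 6) or the 1 stathmin, a protein that sequesters free tubulin. Their medians at day 5 were 0.03, -0.04, -0.31, -0.08, -0.03 and -0.94. The last is the value of the 1 stathmin gene, which lay at low levels. It had 0.38, 0.28 and 0 TPM at day 5 and 2.06, 0.29 and 2.13 TPM in control libraries, and the groups overlapped. At an unadjusted p under 0.05 limma gave, at day 5, 1 TCP-1 gene, 2 prefoldins, 9 axonemal dyneins, 1 cytoplasmic dynein or dynactin gene, 1 microtubule-associated protein and 0 of the kinesins, severing enzymes and stathmin. Over all genes 4501 of 27329 were at that p. The summed TPM of the axonemal dyneins, the motors of cilia, was 1242 to 1491 in control libraries, 1167 to 1392 at day 1, 864 to 1046 at day 3 and 853 to 1043 at day 5, so days 3 and 5 lay below the controls without overlap. The part of this change in the tubulin values was not tested. The axonemal dynein list shares genes with the list of ciliary structures above, so the lists are not separate observations. Centrosomal proteins and centrins had 25 genes with 23 tested, of which 1, 4 and 5 were lower at days 1, 3 and 5 and 0 higher. Over all genes tested 0.0476%, 1.19% and 2.23% were lower on these days. Of the lower centrosomal and centrin genes 0, 3 and 4 have ciliate hits.

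Single libraries moved with the tubulins. Control replicate 1 was the highest of the 3 controls for 48 of the 62 genes, day 3 replicate 2 the highest of its group for 51 and day 1 replicate 2 for 47. Of the 11 genes with a mean of at least 100 TPM, these libraries were the highest of their groups for 8, 11 and 10. They also had the highest median TPM over all genes, 2.65, 2.63 and 2.39 TPM, while the other 9 ran from 1.52 to 2.06 TPM. Without control replicate 1 and day 3 replicate 2 together, 3 genes were called at day 5. Library totals ran from 978610 to 986584 TPM, and since TPM keeps no depth, the depth of each library is unknown.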

How the data were processed

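The authors deposited 1 table of a transcript assembly with annotation hits and 12 library columns. Its header names no unit. Values were read as TPM, since the deposited columns sum to 978610 to 986584 and Salmon is named, with cutadapt, FastQC and edgeR, in the submitters' processing notes. No versions or settings were found. It holds 0 further columns of per-sample values.

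The 27329 of 30535 genes that reached 1 TPM in 3 or more libraries were fitted as log2(TPM + 1), pseudocount 1. The fit used limma 3.58.1 (R 4.3.3) with its trend on mean level, and held the 4 groups and all 12 libraries together. P-values were Benjamini-Hochberg adjusted over all of them. Fold changes are on this scale, which understates changes of low genes. Depth is unknown, so no counting interval is given.

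The 62 genes and all lists were chosen with earlier results of these data known. Classes were set by name patterns, with 2 genes moved by hand after their values were seen (DN21721_c0_g1, named p25-beta, to the polymerization-promoting proteins, and DN38983_c0_g5). The hit groups, the split of the last classes and the cluster shares were also set then. Named genes are those called at any day, the 2 most abundant of each class, and in each class the largest rise and fall at day 5 among genes averaging at least 5 TPM. Others were named after their values were seen (DN35753_c5_g3, DN36514_c3_g1, DN39518_c5_g4, DN5683_c0_g1, DN906_c0_g1 and the ciliate-hit tubulins). Identifiers are given without their shared prefix TRINITY. No sequences are printed. A list of augmin genes matched none.

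Alternatives were quantile normalization, scaling by median ratios, rescaling that left out the 2 most abundant transcripts, a pseudocount of 0.1, no filter, at least 5 TPM in 3 libraries, no intensity trend, a replicate block, a log2 fold change of at least 1, an adjusted p under 0.01, the 6 libraries compared alone, and each library left out in turn. Chosen after the data were seen were leaving out control replicate 1 and day 3 replicate 2 together, and TPM summed by assembly cluster.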

Additional observations from a re-analysis of the deposited data

How the results depend on the processing

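The count of tubulin genes called at day 1, 2 as reported, was 0 without an intensity trend, with only the 6 libraries compared and with TPM summed by cluster, and ran from 0 to 2 when single libraries were left out. At day 3, 4 as reported, it was 2 after rescaling without the 2 most abundant transcripts, with a pseudocount of 0.1 and without a trend, 1 with only 6 libraries, 0 with cluster sums, and 2 to 4 without single libraries. At day 5, 5 as reported, it was 3 without a trend and without the 2 libraries with the highest medians, 2 with cluster sums, and 3 to 6 without single libraries. The F test count, 3 as reported, was 0 with cluster sums and 2 to 4 without single libraries. Cluster sums tested 48 clusters in place of 62 genes. These sums take in every contig of a cluster, with or without a tubulin name. In control libraries cluster DN34571_c2 averaged 228 TPM, while its gamma chains DN34571_c2_g8 and DN34571_c2_g5 averaged 8.03 and 2.98 TPM. The counts with cluster sums are therefore counts of clusters and do not show how many tubulin genes would be called. For the changes under the other settings the cause was not tested. The counts for day 3 against day 1 and day 5 against day 3, 0 as reported, stayed at 0 in every alternative run.

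Same-numbered replicates showed no strong common deviation: correlations over 18 pairs ran from -0.15 to 0.15, with 1 over 0.1. The labels do not say what the replicate numbers stand for. Such correlations cannot show whether same-numbered libraries share a culture or batch. With the replicate block 2, 2 and 5 genes were called at days 1, 3 and 5, and 3 by the F test.

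At day 5 the uncalled gamma-tubulin complex component 2, DN30328_c0_g2, turned to 0.043 (log2) under quantile normalization, 0.053 under median-ratio scaling, 0.088 after rescaling and 0.20 without the 2 libraries, and ran from -0.20 to 0.20 without single libraries. The beta chain DN38829_c3_g3 turned to 0.23, 0.13, 0.16 and 0.24 under the same settings and ran from -0.20 to 0.24. Without single libraries DN33756_c1_g1 ran from -0.030 to 0.15 and DN34708_c0_g1 from -0.10 to 0.35. Rescaling shifted the median of all genes by 0.12 at days 3 and 5, and quantile normalization by 0.10 at day 5; the median of the 62 genes at day 3 was 0.0043 after rescaling. The alpha chains DN33524_c1_g5 (days 3 and 5) and DN35753_c5_g2 (day 5) and the beta chain DN33366_c4_g1 (day 5) kept their calls in all 22 alternatives. DN35753_c5_g2 at day 3 lost its call with only 6 libraries (adjusted p = 0.061). Cluster sums are not among these 22. With them, limma called neither alpha chain's cluster at days 3 and 5. The adjusted p was 0.26 and 0.16 for DN33524_c1, and 0.96 and 0.71 for DN35753_c5. Both sums are mostly made up of the other contigs of the cluster. The cluster of DN33366_c4_g1 was called at day 5 (adjusted p = 0.022).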

Other observations

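Of the 9 tubulin-named genes that the level rule leaves out, 3 are alpha chains, 3 beta chains, 1 a folding factor and 2 modifying enzymes. The alpha chain DN33524_c1_g6 was listed at 4.36 and 3.57 TPM in day 3 replicates 1 and 2 and at 0 in the other 10 libraries. The beta chain DN33479_c2_g3 was listed at 2.28 and 2.66 TPM in the same libraries and at 0 in the other 10. Each shares an assembly cluster with an abundant chain, DN33524_c1_g1 (638 ± 178 TPM at day 3) and DN33479_c2_g1 (58.4 ± 9.6 TPM at day 3). Neither was among the genes tested in the reported fit. Both were in the fit without a filter and in their clusters' sums.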
